A study of Mus musculus with 4 samples.

Results

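The heat shock chaperones described here are 10 genes of the 22056 in the expression tables: Hsp90aa1, Hsp90ab1, Hspa8, Hspa1a, Hspa1b, Dnajb1, Hsph1, Hspa5, Hspd1 and Hspe1. They were taken by name from both tables, and all 10 were present in each. Gene expression was measured by droplet-based single-cell RNA sequencing (10x Genomics 3′ chemistry) in regulatory T (Treg) cells of C57BL/6 mice, sorted as live cells positive for CD4, TCRβ and YFP at over 95% purity. There were 4 libraries, 1 per group: spleen at steady state from ICOS WT mice, spleen at steady state from ICOS-deficient mice (titled ICOS FC), the draining cervical lymph node (LN) of ICOS WT mice taken 1 day after challenge with oxazolone, and the same node and time from ICOS FC mice. ICOS is a costimulatory receptor of T cells, and oxazolone is a chemical that provokes contact inflammation when applied to skin. The sources used here do not give the driver of the YFP mark, the deleted part of Icos, the age and number of mice or any pooling. The series compares ICOS WT with ICOS-deficient Treg cells, at rest and in inflammation. Tissue and oxazolone changed together, so the LN and the spleen differ by both and these cannot be told apart.

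Chaperones bind unfolded or partly folded proteins and keep them from clumping until they fold. HSP70 proteins take up short exposed stretches, J-domain proteins such as DNAJB1 bring the client and start the ATP cycle, and HSP110 proteins such as HSPH1 exchange the nucleotide. HSP90 acts later, on kinases, receptors and other signalling proteins that T cells use. HSPA5, also called BiP, does the HSP70 task in the endoplasmic reticulum (ER), and HSPD1 with its lid HSPE1 forms the folding chamber of mitochondria. On heat or proteotoxic stress the factor HSF1 binds heat shock elements in promoters and induces the stress-inducible members, of which Hspa1a and Hspa1b are the classic pair, whereas HSPA5 belongs to the unfolded protein response of the ER.

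The tables held 4995 cells and 27183614 unique molecular identifiers (UMIs, each standing for 1 captured transcript) for spleen ICOS WT, and 5917 cells and 28256866 UMIs for spleen ICOS FC. For the LN they held 1897 cells and 15045805 UMIs under ICOS WT, and 2066 cells and 17330489 UMIs under ICOS FC. In that order of libraries a cell had a median of 5044, 4361, 6591 and 6789 UMIs, and the median mitochondrial share ran from 3.58% to 4.18%. In the spleen 8 cell barcodes occurred in both libraries and in the LN 30. Levels are UMIs summed over a library's cells per 1000000 of its UMIs (CPM), and a count of 3 UMIs equals 0.106 to 0.199 CPM. Icos transcript itself was higher in the libraries labelled ICOS FC, with 112 (ICOS WT) and 258 CPM (ICOS FC) for spleen and 599 and 928 CPM for LN. Whether the 3′ tag lies outside the deleted part is not given, so this does not check the labels, and the libraries are called by their labels throughout. The Treg factor Foxp3 stood at 53.2, 59.0, 72.2 and 70.7 CPM. Not all sorted cells had it alike. Spleen cluster 4 of the authors' deposited clusters had Foxp3 at 4.03 CPM, beside 42.5 to 79.9 CPM in the other spleen clusters. It held 14.8% of the ICOS WT and 11.1% of the ICOS FC spleen cells. Marker lists of 7 other cell types were summed. Over the libraries they ranged from 24.6 to 112 CPM for CD8 T and NK cells, 46.6 to 103 for plasma cells, 48.8 to 66.6 for stroma and endothelium, 12.5 to 25.3 for B cells, 3.2 to 9.06 for myeloid cells, 0 to 1.84 for erythroid cells and 0 to 0.319 CPM for platelets. These sums are not shares of other cells. Gzma, a CD8 T and NK marker, stood at 108 CPM in LN cluster 0, where Foxp3 was at 91.4 CPM. Xbp1, a plasma cell marker, is also in the unfolded protein response list used below. Among markers with at least 5 CPM in a library, 1 of 1 B cell marker was at least 1.5-fold higher in ICOS FC in each tissue with an interval clear of equality, as were 1 of 1 myeloid and 1 of 4 CD8 T and NK markers in the LN. Ncr1 was at 0 in the spleen, and Ppbp, Pf4, Cdh5, Hbb-bs and Hba-a2 in the LN. Their part in the chaperone levels was not tested.

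With 1 library per group there is no replicate check and no test. Each ratio is given as a log2 ratio of CPM with a 95% exact Poisson interval that covers counting error only and treats each UMI as independent. To be called higher or lower, a gene needed 20 CPM or more in a library, a fold of 1.5 between labels (2 between tissues) and an interval clear of equality. This is a criterion of size and not a test.

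Promoter windows of RefSeq (GRCm38.p6, 250 bases before to 50 after each transcript start) were found for 7 of the 10 genes by symbol. Hsp90aa1, Hsp90ab1 and Hspa8 had no entry. The 5 stretches below are shown because they hold the letters through which the family is known to be induced. Capitals mark a heat shock element or, for Hspa5, the ER stress element, a CCAAT box joined at a fixed distance to CCACG that the unfolded protein response uses. Each is written 5′ to 3′ on the gene's strand.
Hspa1a: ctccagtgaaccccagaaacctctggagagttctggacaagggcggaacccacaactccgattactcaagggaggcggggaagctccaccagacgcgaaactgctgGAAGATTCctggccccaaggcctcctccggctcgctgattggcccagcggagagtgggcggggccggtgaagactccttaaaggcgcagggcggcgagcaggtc
Hspa1b: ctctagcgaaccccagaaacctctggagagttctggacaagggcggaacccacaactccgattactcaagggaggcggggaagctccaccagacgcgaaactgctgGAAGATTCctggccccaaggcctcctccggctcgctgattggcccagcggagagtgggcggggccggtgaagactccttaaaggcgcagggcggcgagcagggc
Hspe1: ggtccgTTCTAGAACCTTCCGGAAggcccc
Hsph1: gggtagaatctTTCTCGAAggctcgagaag
Hspa5: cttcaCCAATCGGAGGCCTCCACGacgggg
The Hspa1a stretch is chr17:34972157-34972366 and that of Hspa1b chr17:34959239-34959448, both on the minus strand and ending 1 base before the start. Over the 250 bases before their starts the 2 windows were equal at 247 (98.8%), and the substitutions from Hspa1a to Hspa1b were C44T, T47C and T249G, counted from 1 at the 5′ end of the window. The Hspe1 stretch is chr1:55088053-55088082 on the plus strand, that of Hsph1 chr5:149636351-149636380 on the minus strand, and that of Hspa5 chr2:34772020-34772049 on the plus strand.

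Hspa1a, Hspa1b, Hspe1, Hspd1 and Hsph1, 5 of the 7 matched genes, held a heat shock element before a start in at least 1 of 2 orders, GAANNTTC or TTCNNGAA, searched on both strands. Among all 27025 genes with a window, 7.73% held the first and 8.11% the second (an order added after the sequences were seen). The share of genes with either order was not counted. Hsph1 held only the second order, Hspa1a and Hspa1b only the first, and the first Hspd1 start neither. Hspe1 and Hspd1 lie head to head on chromosome 1, with RefSeq starts 216 bases apart for the second Hspd1 start, and the stretch shown lies before both starts. It was the only one to hold 3 units in a row (the first order followed by NNGAA, or the second by NNTTC), which 0.514% of genes had, and both orders overlap each other there. Hspa5 held the ER stress element (CCAAT, a gap of 9 bases, CCACG), present in 0.13% of genes, whose first letters are also 1 of its 4 CCAAT boxes. A CCAAT box, CCAAT, stood in 37.5% of genes and a TATA box, TATAAA, in 14.3%. The Dnajb1 windows held 1 CCAAT box and none of the heat shock letters. A match is a description of letters in these windows.

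**Figure D1:**
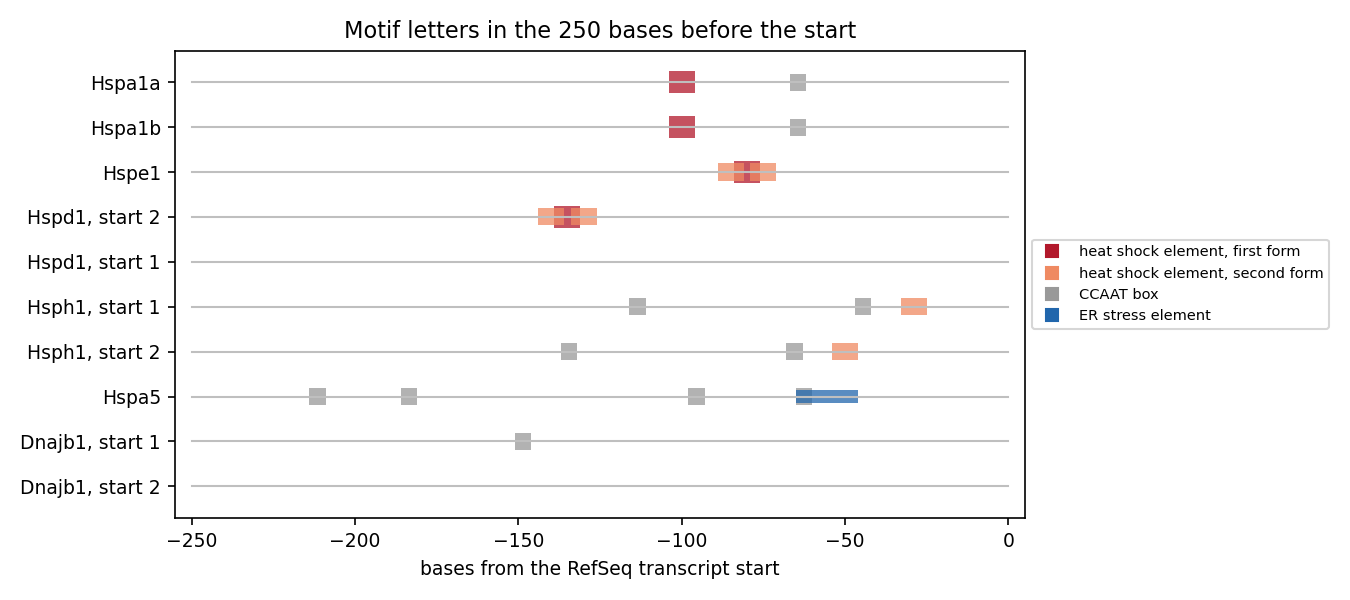
Positions of motif letters in the 250 bases before each RefSeq start of the 7 matched chaperone genes (x axis, bases from the start; 1 line per start; colours, motifs; the first form of the heat shock element is GAANNTTC and the second TTCNNGAA). Hspa1a and Hspa1b have the same layout, and Hspa5 alone has the ER stress element.

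Hsp90aa1 and Hsp90ab1 encode the stress-responsive and the constitutive cytosolic HSP90. Hsp90aa1 (ENSMUSG00000021270.13, chromosome 12, GRCm38) stood at 462 CPM in spleen ICOS WT, 614 in spleen ICOS FC, 529 in LN ICOS WT and 690 in LN ICOS FC. The ICOS FC library was the higher in both tissues, by a log2 ratio of 0.41 (0.38 to 0.44) in the spleen and 0.38 (0.34 to 0.42) in the LN, or 1.33-fold and 1.30-fold. The LN value was 0.17 when CPM was averaged over cells and 0.12 with deposited clusters weighted equally. Hsp90ab1 (ENSMUSG00000023944.14, chromosome 17) stood at 1823, 2262, 2189 and 2417 CPM in the same order. Its log2 ratio of ICOS FC over ICOS WT was 0.31 (0.29 to 0.33) in the spleen and 0.14 (0.12 to 0.16) in the LN. With every cell thinned to 2000 UMIs, the share with an Hsp90aa1 UMI was 53.4% in spleen ICOS WT, 62.9% in spleen ICOS FC, 40.4% in LN ICOS WT and 47.2% in LN ICOS FC. Before thinning these shares were 79.6%, 84.1%, 74.3% and 77.2%. Thinning left out 89, 155, 69 and 59 cells.

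Hspa8 encodes the constitutive cytosolic HSP70, which also has part in clathrin uncoating. Its level (ENSMUSG00000015656.17, chromosome 9) was 1552 CPM in spleen ICOS WT, 1911 in spleen ICOS FC, 1853 in LN ICOS WT and 1949 in LN ICOS FC. The spleen ICOS WT library was the lowest of the 4 for Hspa8, Hsp90ab1 and Hsp90aa1 alike. For Hspa8 the ICOS FC over ICOS WT log2 ratio was 0.30 (0.28 to 0.32) in the spleen and 0.07 (0.05 to 0.10) in the LN. The spleen ratio exceeded that of 97.7% of the genes tested, and the LN ratio that of 71.5%. Hspa8 and the HSP90 genes have processed copies elsewhere in the genome, and how the authors' counting split shared reads is not given, so their levels carry that uncertainty.

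Dnajb1, the J-domain partner of HSP70, and Hsph1, its nucleotide exchange factor, are both known targets of HSF1. Dnajb1 (ENSMUSG00000005483.10, chromosome 8) stood at 78.6 CPM in spleen ICOS WT, 108 in spleen ICOS FC, 50.2 in LN ICOS WT and 56.6 in LN ICOS FC. Both spleen libraries lay above both LN libraries, and within each tissue the ICOS FC library was the higher, with log2 ratios of 0.45 (0.37 to 0.53) and 0.17 (0.03 to 0.31). Hsph1 (ENSMUSG00000029657.15, chromosome 5) stood at 76.6, 103, 51.7 and 70.8 CPM in the same order, with log2 ratios of 0.43 (0.35 to 0.51) in the spleen and 0.45 (0.32 to 0.58) in the LN. Both genes put the libraries in the same order, from spleen ICOS FC down to LN ICOS WT. Hsf1, the factor itself, stood at 27.0, 26.6, 24.9 and 22.4 CPM, and its label ratios on the log2 scale of -0.02 (-0.17 to 0.13) and -0.15 (-0.36 to 0.06) had intervals that span equality.

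Hspa1a and Hspa1b, the stress-inducible HSP70 genes, were the scarcest of the family, and in the LN they were close to the floor of 3 UMIs. Hspa1b (ENSMUSG00000090877.3, chromosome 17) had 63 UMIs in 44 cells of spleen ICOS WT, 108 UMIs in 90 cells of spleen ICOS FC, 7 UMIs in 7 cells of LN ICOS WT and 17 UMIs in 13 cells of LN ICOS FC. These are 2.32, 3.82, 0.465 and 0.981 CPM. Hspa1a (ENSMUSG00000091971.3) had 21, 27, 3 and 4 UMIs. The proteins are known to be nearly identical and tags may be assigned to either gene, so the sum of both is the firmer value: 84 and 135 UMIs in the spleen, a log2 ratio of 0.63 (0.23 to 1.04), and 10 and 21 UMIs in the LN, a log2 ratio of 0.87 (-0.28 to 2.12). Spleen ICOS FC was above spleen ICOS WT beyond counting error, and the LN counts do not settle a direction. Each interval is too narrow to the extent that UMIs came from the same cell, and 1 cell gave at most 5 UMIs of either gene. After thinning, 0.164% to 0.642% of a library's cells had an Hspa1b UMI.

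Hspa5 (ENSMUSG00000026864.13, chromosome 2), the ER member, stood at 256 CPM in spleen ICOS WT, 277 in spleen ICOS FC, 468 in LN ICOS WT and 521 in LN ICOS FC. Both LN libraries lay above both spleen libraries. Between labels it differed little, with log2 ratios of 0.12 (0.07 to 0.16) in the spleen and 0.15 (0.11 to 0.20) in the LN. The spleen ratio was the smallest among the chaperones there.

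Hspd1 and Hspe1, the mitochondrial chaperonin and its lid, share a promoter region as shown above. Hspd1 (ENSMUSG00000025980.14) stood at 174 CPM in spleen ICOS WT, 203 in spleen ICOS FC, 257 in LN ICOS WT and 316 in LN ICOS FC. Hspe1 (ENSMUSG00000073676.4) stood at 476, 582, 690 and 820 CPM in the same order, so both genes ranked the libraries alike. The log2 ratios of ICOS FC over ICOS WT were 0.22 (0.17 to 0.28) and 0.29 (0.26 to 0.32) in the spleen. In the LN they were 0.30 (0.24 to 0.36) for Hspd1 and 0.25 (0.21 to 0.29) for Hspe1.

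Across the family, all 10 log2 ratios of ICOS FC over ICOS WT were above 0 in the spleen and all 10 in the LN, and 0 of the 8 with at least 20 CPM were called by size in either tissue (Hspa1a and Hspa1b are under that minimum). That rule called 0.588% of 5105 genes higher and 0.255% lower in the spleen, and 1.11% of 5506 higher and 1.05% lower in the LN. The family median was 0.31 in the spleen beside -0.02 over all genes tested, and 0.23 in the LN beside -0.03. All 8 members with at least 20 CPM had an interval wholly above equality in both tissues. Among all genes, that held for 15.3% in the spleen and 20.4% in the LN, and 23.1% and 27.7% lay wholly below. Hspa1b was a ninth member above equality in the spleen. Abundant genes have narrow intervals, so the counts reflect depth as well as size. Summed, the 10 genes took 0.490% of UMIs in spleen ICOS WT, 0.606% in spleen ICOS FC, 0.609% in LN ICOS WT and 0.684% in LN ICOS FC. With deposited clusters weighted equally, 7 of 10 LN ratios were above 0, Hspa8 was at -0.0070, Hspa5 at -0.070 and Hspa1a, with few UMIs, at -0.42, and the LN median was 0.064. Over all LN alternatives Hsp90ab1 ranged from 0.025 to 0.20, Dnajb1 from 0.068 to 0.23, Hspd1 from 0.059 to 0.44 and Hspa1b from -0.33 (cells with a Foxp3 UMI) to 1.53.

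**Figure D2:**
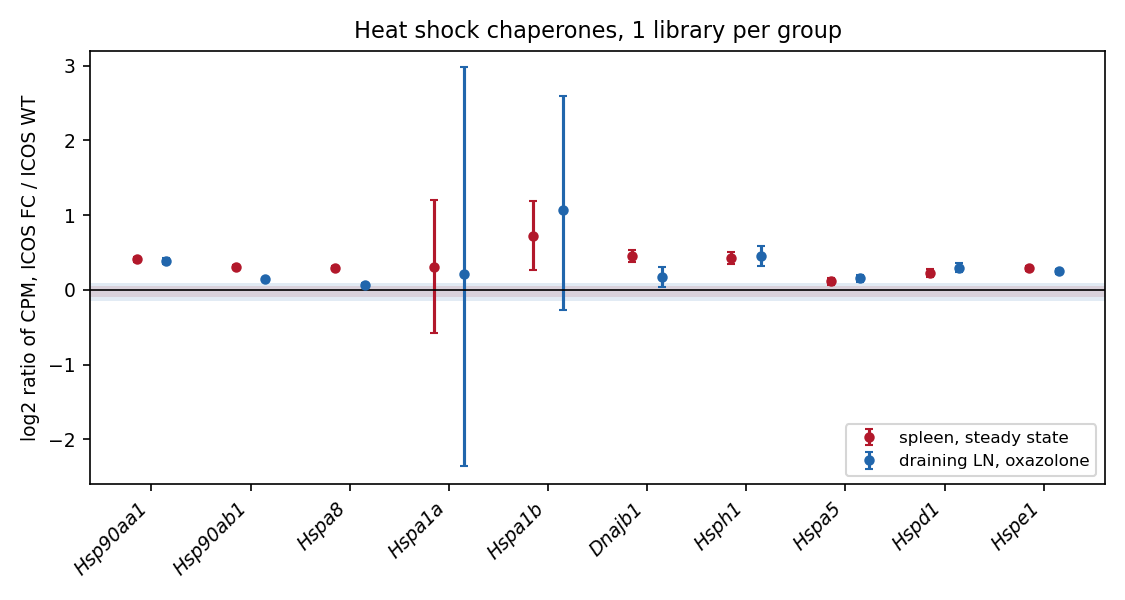
Level of each chaperone in ICOS FC relative to ICOS WT, as log2 of the CPM ratio (y axis), in the spleen and the LN, with 95% Poisson intervals for counting error; shaded bands are the middle 50 percent of all genes tested. All 20 points lie above 0, and the widest intervals belong to Hspa1a and Hspa1b, which had 3 to 108 UMIs per library.

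Set against the spleen, the LN libraries were higher for some members and lower for others (the label comparisons above use the same 4 libraries). Hspa5 was 1.83-fold higher in the LN under ICOS WT and 1.88-fold under ICOS FC, with log2 ratios of 0.87 (0.82 to 0.92) and 0.91 (0.87 to 0.95). The mitochondrial pair was higher as well, with log2 ratios of 0.56 and 0.64 for Hspd1 and 0.54 and 0.50 for Hspe1. The cytosolic partners of HSP70 stood lower in the LN. Dnajb1 had log2 ratios of -0.65 (-0.77 to -0.53) and -0.93 (-1.03 to -0.82), and Hsph1 of -0.57 (-0.69 to -0.45) and -0.54 (-0.64 to -0.44). The sum of Hspa1a and Hspa1b was 3.09 CPM in spleen and 0.665 in LN under ICOS WT, and 4.78 and 1.21 CPM under ICOS FC, so it was 4.65-fold and 3.94-fold lower in the LN. Hsp90aa1 (0.20 and 0.17), Hsp90ab1 (0.26 and 0.10) and Hspa8 (0.26 and 0.03) had ratios within the middle 50 percent of all genes, which ran from -0.07 to 0.36 under ICOS WT and -0.12 to 0.40 under ICOS FC around a median of 0.13.

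Of the 8 members with at least 20 CPM, 0 passed the 2-fold rule in the LN against the spleen, which called 5.33% of 5519 genes higher and 0.471% lower under ICOS WT, and 5.9% of 5470 higher and 0.676% lower under ICOS FC. Hspa1a and Hspa1b, under the minimum, were at log2 ratios of -1.95 and -2.32 under ICOS WT and -2.05 and -1.96 under ICOS FC, with intervals below equality. Of the 8, Dnajb1 and Hsph1 had intervals wholly below equality and the other 6 wholly above under each label. Among genes with that minimum 49.5% were above and 19.2% below under ICOS WT, and 49.8% and 24.7% under ICOS FC. With TMM factors the median of all genes was -0.04 and -0.02, so that scaling moved it by more than 0.1. Hspa5 and Hspe1 stayed above 0, and Dnajb1, Hsph1, Hspa1a and Hspa1b below 0, under both labels in every alternative that gave a value. Hsp90aa1 was at -0.40 and -0.51 with cells thinned to 2000 UMIs (ICOS WT, ICOS FC). Hspd1 was at -0.038 under ICOS WT and 0.095 under ICOS FC without the 5% of cells with most UMIs.

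**Figure D3:**
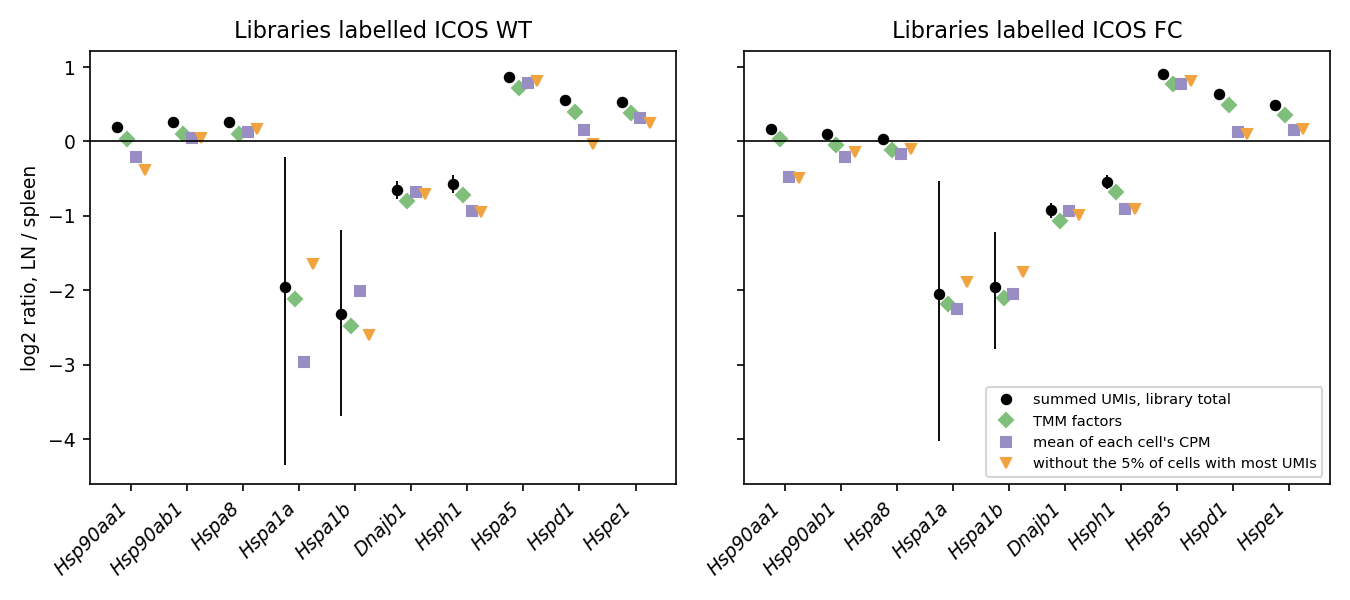
Log2 ratio of the LN over the spleen for each chaperone (y axis) in the libraries labelled ICOS WT (left) and ICOS FC (right); black points use summed UMIs and library totals with 95% Poisson intervals, and the coloured points are 3 alternative computations. Hspa5 lies above 0 and Dnajb1, Hsph1, Hspa1a and Hspa1b lie below 0 under all 4, while Hsp90aa1 changes sign under both labels, Hspd1 under ICOS WT, and Hsp90ab1 and Hspa8 under ICOS FC.

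UMIs of Hspd1 and Hsp90aa1 were more concentrated in few cells in the LN than in the spleen. In the LN, the 1% of cells with most Hspd1 UMIs held 28.5% (ICOS WT) and 22.2% (ICOS FC) of them, and for Hsp90aa1 25% and 21.9%. In the spleen these shares were 12.9% and 15.5% for Hspd1 and 9.43% and 9.54% for Hsp90aa1. The 1% of cells with most UMIs of any kind held 3.23% to 3.80% of a spleen library and 5.27% to 5.50% of an LN library. For Hspa5 they were 10.5% and 10.3% in the LN, beside 9.22% and 9.03% in the spleen. Its share of thinned cells with a UMI was 37.2% and 38.1% in the spleen, beside 50.5% and 49.7% in the LN, so more LN cells had it in view at equal depth.

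The authors' deposited clusters were used as they stand, by number, with leading genes given. They were made from expression, so levels between clusters are a description. In the spleen, cluster 5 (420 cells, led by Ccl4, Egr3, Nr4a1 and Nr4a3, TCR-activated-like by 4 markers among its top 10 genes, with H2-Aa also there) had the highest level of every member but Hspa1b, although cluster 6 came close for Dnajb1 (114 CPM) and Hspa1a (5.06 beside 5.12 CPM). Hsp90aa1 reached 1437 CPM there, beside 407 to 621 CPM in the other spleen clusters. Hspd1 reached 676 CPM beside 130 to 173 CPM, and Hspe1 1313 CPM beside 378 to 533 CPM. Hsp90ab1 was at 4554 CPM, Hspa8 at 2845, Hspa5 at 623, Hsph1 at 221 and Dnajb1 at 118 CPM in that cluster. Dnajb1 varied least over spleen clusters, 1.52-fold from lowest to highest, and Hspd1 5.19-fold. Follicular Treg-like cluster 1, led by Sostdc1, Lag3 and Il10, was second for Hspa5 at 400 CPM.

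Hspa1b UMIs were concentrated within the spleen as well. Cluster 5 had 15.7 CPM (11.7 to 20.5), from 35 of 420 cells. The interferon response-like cluster 6, led by Ifit3 and Rsad2, had 21.5 CPM (12.5 to 34.5), from 10 of 164 cells. A single cell gave 5 of the 17 UMIs of cluster 6. Cluster 4, low in Foxp3 at 4.03 CPM, had 0.403 CPM (0.083 to 1.18), from 3 of 1392 cells, and cluster 0 had 2.06 CPM. Median UMIs per cell were 6480 in cluster 5, 4438 in cluster 6 and 5146 in cluster 4 (the deepest of the 3 also had the largest share of cells). The part of depth was not tested. No cell type that should lack these genes was at hand to give a level of free RNA. The label difference in Hspa1b was unevenly placed: cluster 0 had 6 UMIs in ICOS WT and 35 in ICOS FC, a log2 ratio of 2.63 (1.37 to 4.17), and cluster 1 had 3 and 18, a log2 ratio of 2.23 (0.46 to 4.64). In cluster 5 both libraries had 26 UMIs. Cluster 2 had 14 and 20, with an interval that spans equality, and clusters 3 and 4 had 3 UMIs each. Cluster 6, the highest for Hspa1b, held 47 ICOS WT and 117 ICOS FC cells and was not split by label, so its direction is not given.

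In the LN, cluster 4 (355 cells, led by Shmt1, Hk2 and Srm, enzyme genes of folate, sugar and polyamine metabolism) had the highest level of 7 of the 8 members above 20 CPM. Hsp90aa1 reached 1582 CPM there, Hsp90ab1 4458, Hspa8 2836, Hsph1 161, Hspa5 883, Hspd1 901 and Hspe1 1712 CPM. Its cells were the deepest, with a median of 12828 UMIs. The interferon-led cluster 5 (Rsad2, Oasl1) was lowest for Hsp90aa1 at 219 CPM and Hspd1 at 81.3 CPM, so Hspd1 spanned 11.1-fold over the LN. Dnajb1 was the exception in the LN: it was highest in cluster 7 at 80.5 CPM and in cluster 6 at 70.9 CPM, and cluster 4 had 53.2 CPM. Cluster 7 (123 cells) was led by Egr3 with Cd8a and Klrd1 and held as many CD8 T and NK as TCR-activated markers. Cluster 6 (179 cells) was led by H2-Eb1, H2-Ab1 and H2-Aa, with Foxp3 at 144 CPM, and had a median of 1959 UMIs and 7.25% mitochondrial counts. The part of other cells or doublets in it was not tested.

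**Figure D4:**
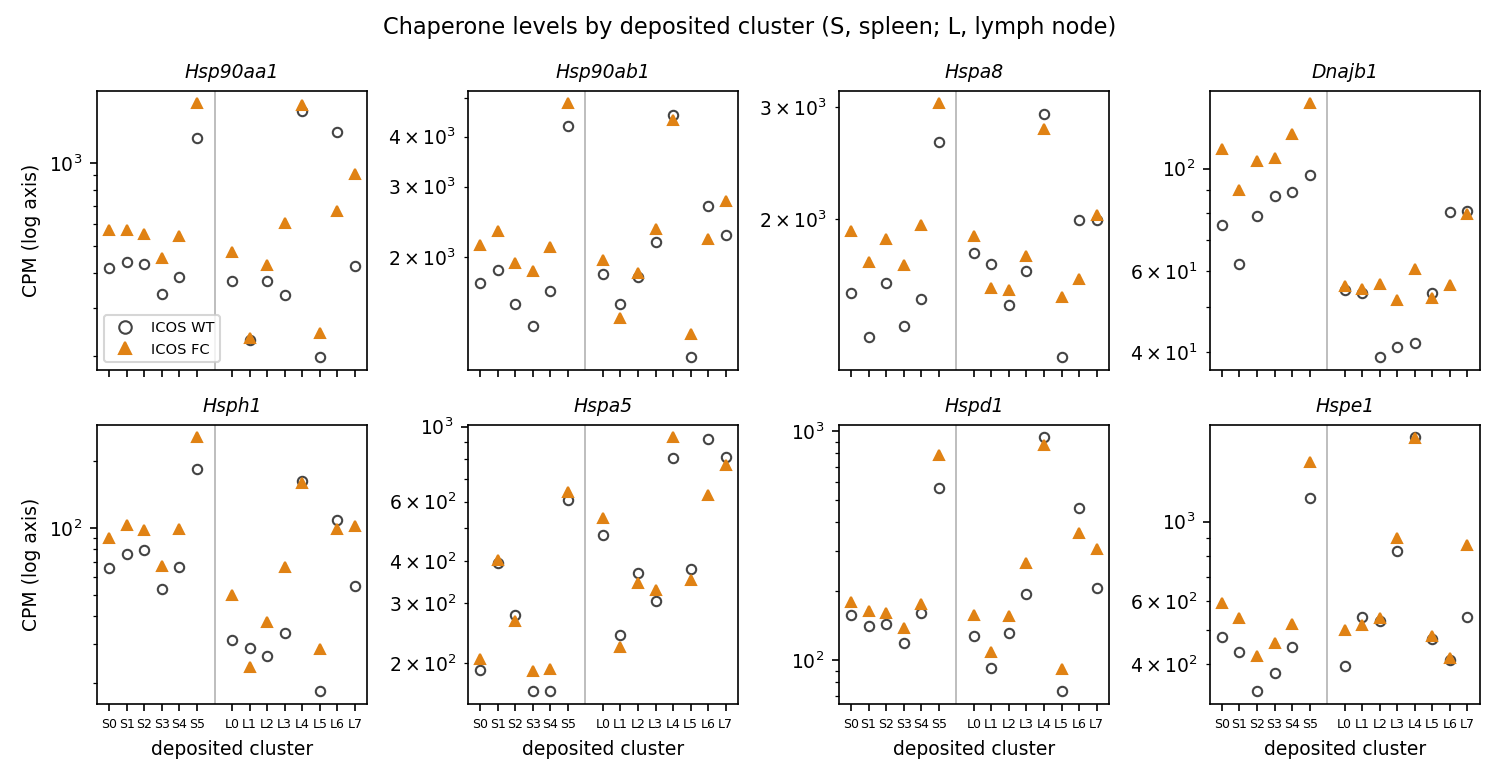
Levels of the 8 chaperones above 20 CPM (y axis, CPM on a log axis) by deposited cluster of the spleen (S) and the LN (L) with at least 50 cells in both libraries; open circles are ICOS WT and triangles ICOS FC, 1 library each. Spleen cluster 5 and LN cluster 4 stand highest for most genes, and in the spleen the triangles of Hsp90aa1, Hsp90ab1, Hspa8, Dnajb1, Hsph1 and Hspe1 lie above the circles in all 6 clusters.

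The spleen difference between labels was also taken within clusters of at least 50 cells in both libraries. These clusters are parts of the same 2 libraries, so they are not replicates, and a library-wide shift would show in each. Hsp90aa1, Hsp90ab1, Hspa8, Dnajb1, Hsph1 and Hspe1 had an interval wholly above equality in 6 of 6 spleen clusters, which held for 0.784% of the 5105 genes. Hspd1 had 5 of 6, reached by 1.59% of genes with at least that many, and Hspa5 had 3 of 6. Both shares reflect depth as well as size, since scarce genes rarely clear equality within a cluster. The log2 ratios of Hsp90aa1 ran from 0.35 to 0.48 over these clusters and those of Hspe1 from 0.22 to 0.33. Without cluster 5, where levels were highest, all 10 spleen ratios remained above 0 (added after the data were seen).

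In the LN the label difference was uneven. Hsp90aa1 was at 333 CPM in ICOS WT and 607 in ICOS FC in cluster 3 (led by Gbp2b and Bcl2), a log2 ratio of 0.87 (0.70 to 1.04), and stood at 424 and 910 CPM in cluster 7, a log2 ratio of 1.10 (0.87 to 1.33). In cluster 4, where it was highest, the libraries stood at 1534 and 1613 CPM, and in cluster 6 at 1292 and 672 CPM, a log2 ratio of -0.94 (-1.27 to -0.62). Hspd1 in cluster 4 was at 940 CPM in ICOS WT and 875 in ICOS FC, the reverse of the whole library. Single cells weigh in the smaller groups: 1 cell gave 165 of the 685 Hsp90aa1 UMIs of cluster 7, 1 gave 160 of the 1856 of cluster 3 and 1 gave 90 of the 429 of cluster 6, so these intervals are too narrow. Cluster 4 held 7.27% of ICOS WT and 10.5% of ICOS FC cells. Without it the Hsp90aa1 ratio was 0.38, as with it, and the family median was 0.30 beside 0.23. Hsph1 (0.59 beside 0.45), Hspd1 (0.37 beside 0.30) and Hspa1a, with few UMIs (1.47 beside 0.21), were higher without it. The remaining members were lower without it, among them Hspa5 (0.033 beside 0.15), Dnajb1 (0.10 beside 0.17) and Hsp90ab1 (0.11 beside 0.14). Hsp90aa1, Hsp90ab1, Hspa8, Hsph1, Hspd1 and Hspe1 had intervals above equality in at least 3 of 8 LN clusters, as did 6.67% of 5506 genes. Some also had intervals below equality: 3 clusters for Hsp90ab1 (4 above), 3 for Hspa8 (3 above), and 1 each for Hsp90aa1 (5 above) and Hspd1 (4 above). Without LN cluster 4, Hsph1 reached a log2 ratio of 0.59 and just passed the 1.5-fold rule, the only member to do so (added after the data were seen). Among all genes, 49 were called higher and 62 lower in that setting.

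Cells with an Hspa1a or Hspa1b UMI were compared with the other spleen cells at 2000 UMIs per cell. There were 24 such cells of 4906 in ICOS WT and 44 of 5762 in ICOS FC, too few in the LN (3 and 4) to describe. Hsp90aa1 stood at 1896 CPM in them and 460 CPM in the rest in ICOS WT, 4.12-fold, and at 1648 and 619 CPM in ICOS FC, 2.66-fold. Hsph1 was 3.80-fold and 2.95-fold higher, Hspd1 3.43-fold and 2.63-fold, and Hspa8 1.91-fold and 1.76-fold. The 8 other members all had intervals wholly above equality in both libraries. That held for 4.62% of 5065 genes in ICOS WT and 5.12% of 4976 in ICOS FC. Scarce genes can hardly clear equality in so few cells, so these shares reflect depth as well as size. The intervals are too narrow to the extent that UMIs came from the same cell. Actb, a cytoskeletal gene, was 1.20-fold and 1.14-fold higher. Immediate early genes, such as Fos and Jun, summed to 0.963-fold and 1.18-fold.

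Some of these cells sat in spleen cluster 5. Outside it 16 and 37 cells remained, and the Hsp90aa1 ratio on the log2 scale was 1.42 (0.91 to 1.88) in ICOS WT and 1.13 (0.83 to 1.43) in ICOS FC, from 2.04 and 1.41 with it. Hsph1 was at 1.69 and 1.40. For Dnajb1 (0.95, -0.68 to 2.18) and Hspe1 (0.40, -0.36 to 1.06) the ICOS WT intervals then spanned equality. Actb was at 0.43 (0.29 to 0.56) and 0.22 (0.12 to 0.32) outside that cluster, and the early genes at 0.16 (-0.20 to 0.50) and 0.39 (0.22 to 0.56).

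**Figure D5:**
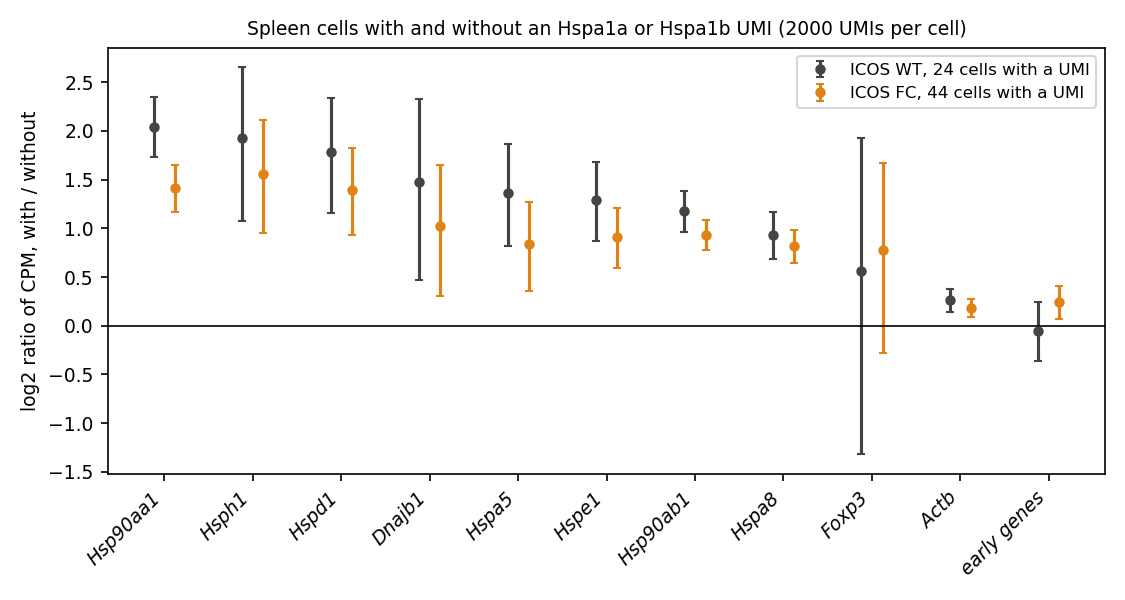
Log2 ratio of CPM between spleen cells with and without an Hspa1a or Hspa1b UMI, all cells thinned to 2000 UMIs (y axis), with 95% Poisson intervals for counting error; 24 cells with a UMI in ICOS WT and 44 in ICOS FC. The 8 other chaperones lie above 0 in both libraries, the intervals of Foxp3 span 0, Actb is at 0.26 and 0.19, and the summed immediate early genes (early genes) are at -0.05 and 0.24.

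By deposited cell cycle phase, which comes from the authors' scores, LN cells called S or G2M had more HSP90 and mitochondrial chaperone than G1 cells. Hsp90aa1 was at 310 CPM in G1, 1055 in S and 1285 in G2M cells of LN ICOS WT, and at 382, 1198 and 1486 CPM in LN ICOS FC. Hspd1 in the same order was at 151, 558 and 336 CPM, and 193, 560 and 474 CPM. Dnajb1 ranged only from 48.7 to 66.2 CPM over the LN phases. In the spleen Hsp90aa1 stood between 391 and 512 CPM in ICOS WT and between 549 and 677 CPM in ICOS FC. In G1 cells alone the spleen family median was 0.36 and the LN median 0.20 (ICOS FC over ICOS WT), with Hspa1a below 0 in the LN at 3 UMIs in each library.

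Genes with profiles most like each member were sought over 29 cluster-by-library groups (13 spleen, 16 LN) among 5176 genes, by Pearson r of log2(CPM + 1). Groups share libraries and depth, so r is a description. Hsp90aa1 was most like Stip1 (r = 0.95), the adaptor between HSP70 and HSP90, then the HSP90 co-chaperone Ptges3 (0.94) and the chaperonin subunit Tcp1 (0.93). Hsph1 was also most like Stip1 (0.94), followed by Ahsa1, an activator of HSP90 (0.90). Dnajb1 and the Hspa1 genes shared partners with both tissues pooled. Dnaja1, another J-domain gene, had r = 0.80 with Dnajb1, 0.74 with Hspa1a and 0.68 with Hspa1b, and Chordc1, an HSP90 co-chaperone, 0.69, 0.78 and 0.73. All of these members were lower in the LN, which enters the pooled r. Hspa1a and Dnajb1 had r = 0.55 pooled, 0.41 in the spleen and -0.26 in the LN. Hspa1b and Dnajb1 had 0.61, 0.49 and 0.42, and Hspa1a and Hspa1b 0.80, 0.91 and 0.0094. Hspa1a had few UMIs in the LN.

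The other members lay nearest to genes outside the chaperone lists. Hspd1 was most like Pa2g4 (0.98), Lyar (0.97) and G3bp1 (0.97), and Hspe1 most like the small nucleolar RNA protein gene Nhp2 (0.94). Hspa5 was most like Smarca5 (0.94), Nfkb2 (0.93) and Map4k1 (0.92), none of which is an ER chaperone. For Hsp90ab1 the nearest were Prmt1, Eif4a1 and Set (0.94 each). For Hspa8 they were U2af1 (0.91), a splicing factor, Atp5b (0.91) and Pfdn6 (0.90), a prefoldin subunit. Between members, Hspd1 and Hsp90ab1 had r = 0.95 over the 29 groups. Hspa5 and Dnajb1 had r = -0.20 with both tissues pooled, but 0.16 over the 13 spleen groups and 0.53 over the 16 LN groups.

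Related genes were taken as 5 lists, with members counted at 5 CPM or more in a library of the tissue. At that minimum 1.07% of 8406 genes were called higher and 0.559% lower in the spleen, and 1.93% of 8694 higher and 2.22% lower in the LN. Intervals lay wholly above equality for 12.1% and below for 19.3% of these spleen genes, and above for 16.3% and below for 23.5% of these LN genes. Of 29 HSF1-pathway and cytosolic co-chaperone genes measured in the spleen, 2 were called higher and 0 lower, 15 had intervals above equality and 3 below, and the median log2 ratio was 0.15 beside -0.03 over all genes. Hspb1, a small heat shock protein, went from 0.699 CPM in ICOS WT to 5.56 CPM in ICOS FC, Stip1 from 93.6 to 123 CPM, and Fkbp5, an HSP90 partner known as a glucocorticoid target, from 38.4 down to 26.1 CPM. In the LN 1 of 28 was called higher, 14 intervals were above and 2 below, with a median of 0.10 beside -0.04. Hspb1 was at 5.05 and 9.35 CPM there, and Fkbp5 again lower at 53.2 and 35.8 CPM, a log2 ratio of -0.57.

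The chaperonin TRiC, which folds actin and tubulin, had intervals above equality for all 7 measured subunits in both tissues, beside the 12.1% and 16.3% of all genes, and 0 of them called, with medians of 0.10 in the spleen and 0.25 in the LN. Cct3 stood at 161, 183, 167 and 204 CPM (spleen ICOS WT, spleen ICOS FC, LN ICOS WT, LN ICOS FC). Of 22 ER chaperone and unfolded protein response genes, 1 was called higher in the spleen and 1 lower in the LN, in both cases Ppp1r15a, and medians were -0.01 and 0.05. Hsp90b1, the ER form of HSP90, was at 195, 228, 358 and 427 CPM in that order. Of 11 mitochondrial chaperone and protease genes, 0 had an interval clear of equality in the spleen and 7 had one above it in the LN (16.3% of all genes there), with medians of 0.02 and 0.18. Hspa9, the mitochondrial HSP70, stood at 75 and 96.9 CPM in the LN.

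Immediate early genes, which also respond to cell handling, were called in opposite directions in the 2 tissues. Of 11 measured, 5 were called higher and 0 lower in the spleen and 0 higher and 4 lower in the LN, with medians of 0.58 and -0.32. Among all genes 1.07% were called higher in the spleen and 2.22% lower in the LN. Not all early genes moved alike: intervals lay above equality for 9 and below for 2 in the spleen, and for 2 and 8 in the LN. The summed level of the early genes was 1905 CPM in ICOS WT and 2719 in ICOS FC spleen, and 1864 and 1597 CPM in the LN, while the 10 chaperone ratios were above 0 in both. They were higher in ICOS FC in spleen clusters 0 to 4 and 6, for example at 1660 and 2551 CPM in cluster 0 and 1556 and 2296 CPM in cluster 4, and Hsp90aa1 was higher in clusters 0 to 4 as well. In spleen cluster 5, the exception, they were at 2627 CPM in ICOS WT and 2461 in ICOS FC, and Hsp90aa1 there was at 1229 and 1641 CPM. The part of handling in the chaperone levels was not tested.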

How the data were processed

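Data from 4 10x Genomics 3′ libraries, 1 per group, were analysed. The authors' deposited expression tables hold, by their values, the natural log of 1 plus a cell's UMIs scaled to 10000. Their deposited cell tables hold each cell's UMI count, percent of mitochondrial counts, phase, cluster number and a Control or KO entry. From the words alone, Control cells were read as ICOS WT mice and KO cells as ICOS FC mice. Cell Ranger 4.0.0, R 3.6.1, Seurat 3.0 and GRCm38.p6 (mm10) are named in the submitters' processing notes; the sources used here do not give their roles, the gene annotation or any doublet removal. No doublet caller was run.

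UMIs were recovered by inverting the log (100% of values whole within 0.001; all 10912 and 3963 cells equalled their deposited totals), summed per library and scaled to CPM. Python 3.11.15 with scipy 1.17.1 gave Poisson and Clopper-Pearson intervals at 95%; edgeR 4.0.16 and DESeq2 1.42.0 gave alternative scaling factors only. The ratio script was checked on simulated counts. Coordinates are from GENCODE M21 (GRCm38), motifs from RefSeq windows. Related lists used at least 5 CPM, with 0.5 CPM added for medians. Up to 3 genes per list and tissue were named by the interval bound farthest from equality. Up to 3 partners per member were named by r. Members and lists were chosen with earlier results of these data known. Alternatives covered scaling, cell weighting, thinning, cell filters, clusters and thresholds.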

Additional observations from a re-analysis of the deposited data

Results flagged for a closer look

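In 4 related genes the libraries labelled ICOS FC and ICOS WT differed by more than 1.5-fold in both tissues but in opposite directions. The log2 ratio of ICOS FC over ICOS WT was 2.22 in the spleen and -1.17 in the LN for Fos, 1.56 and -2.10 for Fosb, 1.16 and -0.89 for Jun, and 1.26 and -0.63 for Ppp1r15a. The difference between tissues was not tested, since each group was 1 library.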

How the results depend on the processing

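All 10 spleen ratios of ICOS FC over ICOS WT stayed above 0 under all 12 alternatives that recomputed them, with family medians of 0.30 to 0.39. The rest of the 14 alternatives changed only a threshold, which cannot move a ratio. In the LN the medians were 0.064 to 0.30; with clusters weighted equally Hspa8 was at -0.0070 and Hspa5 at -0.070. Members called higher were 0 in both tissues, 3 in the spleen and 2 in the LN with the minimum fold lowered by 0.25, 1 in the spleen (Hspa1b) with no minimum CPM and 1 in the LN (Hsph1) without cluster 4. At that lower minimum 99 genes were called higher and 82 lower in the spleen (30 and 13 at 1.5-fold), and 280 and 362 in the LN (61 and 58); with no minimum 357 and 203, and 359 and 463. Cells with a Foxp3 UMI gave 75 and 30 for spleen, 92 and 100 for LN. Totals without ribosomal protein and mitochondrial genes gave 49 and 22 in the spleen; leaving out cluster 4 gave 20 lower there. In the LN thinning gave 125 lower, equal cluster weights 38 higher, and leaving out cluster 4 gave 49 higher and 62 lower. TMM gave 36 and 9 for spleen, 72 and 46 for LN, and DESeq2 size factors 36 and 9, 73 and 46.

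For the LN over the spleen the family median was 0.23 (ICOS WT) and 0.06 (ICOS FC). Under ICOS WT it was 0.067 with TMM, 0.071 with DESeq2 factors, 0.045 without ribosomal protein and mitochondrial genes, -0.082 with the mean of each cell's CPM, -0.20 thinned and -0.21 without the 5% of cells with most UMIs. Under ICOS FC these were -0.078, -0.067, -0.097, -0.34, -0.36 and -0.31, with 0.12 for cells having a Foxp3 UMI. Under ICOS WT, Hsp90aa1 was at -0.21 (mean of cells), -0.40 (thinned) and -0.39 (without the deepest cells), Hsp90ab1 at -0.0057 thinned and Hspd1 at -0.038 without the deepest cells. Under ICOS FC, Hsp90aa1 was at -0.48, -0.51 and -0.48, Hsp90ab1 at -0.20, -0.20 and -0.14 and Hspa8 at -0.17, -0.16 and -0.10 under those 3, which left 3 members above 0. Under ICOS FC with TMM, DESeq2 and the reduced total, Hsp90ab1 was at -0.045, -0.033 and -0.063 and Hspa8 at -0.11, -0.10 and -0.13, and 1 member was called lower under each. Members called lower were 1 under ICOS WT when thinned and 2 under each label with no minimum CPM; at 1.5-fold, 1 was higher and 1 lower under ICOS WT and 2 and 1 under ICOS FC. The cause of these changes was not tested. All-gene calls at 1.5-fold were 679 and 97, and 804 and 177 (294 and 26, and 323 and 37 at 2-fold); with no minimum 1208 and 194, and 1167 and 289. Calls of lower genes were 41, 40 and 59 under ICOS WT with TMM, DESeq2 and the reduced total and 64, 63 and 90 under ICOS FC, beside 215, 216 and 262, and 257, 260 and 333 higher. Under ICOS WT 14 genes were lower by the mean of cells, and under ICOS FC 75 in cells with a Foxp3 UMI. Thinned LN cells held no Hspa1a UMI and gave no value, so the medians with thinning rest on 9 members. No paired analysis was possible because each group is 1 library and the labels give no replicate numbers. With 1 library per group, mouse-to-mouse and library-to-library spread is unknown, and depth limits Hspa1a and Hspa1b in the LN.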

Other observations

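Hspa1a and Hspa1b UMIs occurred together in 7 cells of spleen ICOS WT and 8 of spleen ICOS FC. Hspa1b was seen in 35.0% and 36.4% of the cells with an Hspa1a UMI, beside 0.744% and 1.39% of the other cells. Per library the ratio of Hspa1a to Hspa1b UMIs was 0.333, 0.25, 0.429 and 0.235 (spleen ICOS WT, spleen ICOS FC, LN ICOS WT, LN ICOS FC). In the LN 1 cell held both.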
